A study of Mus musculus with 8 samples.

Results

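The genes described here are the members of 7 families of solute carriers (SLC1, SLC3, SLC6, SLC7, SLC36, SLC38 and SLC43) that move amino acids and related small molecules across cell membranes. Members were taken by gene symbol alone, as every symbol made of one of these family names and a member number. The rule found 62 symbols among the 20377 in the files. Of these, 61 are genes named as carriers, and Slc7a6os, the neighbour of Slc7a6 on the other strand, matches by name only. They were measured by RNA sequencing in duct cells sorted from the livers of wild type C57BL/6 mice. The sort kept non-blood cells that bound the duct antibody MIC1-1C3 and lacked CD26. It divided them by surface ST14 (matriptase, a membrane protease of epithelia) into ST14high and ST14low cells. Each population has 4 libraries, replicates 1 to 4. The labels give no age or sex and leave unsaid if each library had its own animal, so the p-values rest on a spread between libraries that may be technical.

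Amino acid carriers differ in what drives them. SLC1, SLC6 and most SLC38 carriers use the sodium gradient to load cells, SLC36 carriers use protons, and SLC43 carriers let amino acids pass down their gradient. SLC7 light chains exchange one amino acid for another and reach the membrane only when bound to an SLC3 heavy chain, whereas the cationic carriers of SLC7 work without one. Bile duct cells face glutathione in bile, which enzymes on their surface split into amino acids that the cells can take back up.

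Totals with 1 transcript per gene ranged from 17418202 to 42769988 counts in ST14high and from 6398307 to 31011678 in ST14low libraries. The 19 duct cell markers summed to between 38606 and 60985 CPM (counts scaled to library size, with TMM factors) in ST14high and between 41782 and 61675 CPM in ST14low libraries. St14 itself averaged 305.1 ± 32.5 CPM in the ST14high libraries and 329.9 ± 49.0 CPM in the ST14low libraries (SD, n = 4 each; edgeR adjusted p = 0.809). ST14high replicate 1 stood apart. Its 20 pancreatic acinar markers summed to 12185 CPM, against 1804 CPM in ST14high replicate 2 and between 5.86 and 135.5 CPM in the other libraries, with Prss1 and Ptf1a at 0 in every ST14low library. Its 19 mesothelial, fibroblast and stellate markers summed to 3698 CPM, against 886.1 to 1165 CPM in the other ST14high and 340.1 to 686 CPM in the ST14low libraries. In these sums the other ST14high libraries thus also lay above every ST14low library. In edgeR 15 of the 19 had an unadjusted p under 0.05, all higher in ST14high (78.9%, against 9.56% of all genes). DESeq2's Wald test called 10 of the 17 that it gave an adjusted p, at a threshold of 0.05, against 1.72% of all genes. EdgeR called 0. The macrophage markers summed to 243.3 to 393.7 CPM in ST14high and 385.9 to 1035 CPM in ST14low libraries, and the lymphocyte markers to at most 69.9 CPM in any library. The 18 hepatocyte markers summed to between 5921 and 13675 CPM in ST14high and between 9444 and 15848 CPM in ST14low libraries. Log2 fold changes (ST14high over ST14low) were below 0 in all 18 of them, in 13 of 15 macrophage markers and in 12 of 14 endothelial markers. For the members that ST14high replicate 1 moves most, fold changes are given with and without that library. Leaving it out does not remove the differences in marker sums between the other libraries. In RNA from sorted populations, fewer cells of a type and less RNA per cell cannot be told apart.

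For the level of one gene against another, the RPKM deposited by the authors were used, which scale reads by transcript length and library depth. The sum over the 61 carriers was 704.2 ± 73.0 RPKM in ST14high and 697.8 ± 68.7 RPKM in ST14low (SD, n = 4 each; exact two-sided permutation p = 0.886). Slc6a6, the taurine carrier, stood first at 140.6 ± 6.08 RPKM in ST14high and 138.8 ± 26.2 RPKM in ST14low. Slc38a4, a sodium-coupled carrier of neutral amino acids known from liver, followed at 116.1 ± 29.3 RPKM in ST14high and 133.3 ± 14.4 RPKM in ST14low. Hepatocyte markers were read in every library, with sums from 5921 to 15848 CPM, and their part in the level of Slc38a4 was not tested. Slc43a2, which lets leucine, phenylalanine and methionine through the membrane, was next by the mean over all 8 libraries, at 58.5 ± 12.1 RPKM in ST14high and 85.5 ± 21.1 RPKM in ST14low. In ST14high alone the means of Slc38a2 (65.6 RPKM) and Slc38a10 (59.3 RPKM) were above it. These 3 genes held 45.5 ± 9.43% of the carriers' summed RPKM in ST14high and 51.0 ± 3.66% in ST14low, and 31.6% in ST14high replicate 1. Slc38a10, Slc38a2 and Slc3a2 came next, with means over all libraries of 61.8, 55.6 and 44.2 RPKM. Slc38a10 was above Slc3a2 in every library, while Slc38a2, at 24 to 113.6 RPKM, spanned the ranges of both. At the low end of the members tested, Slc6a4, Slc7a3 and Slc43a1 averaged between 0.713 and 0.806 RPKM over all libraries, and Slc1a2 averaged 0.267 RPKM.

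**Figure D1:**
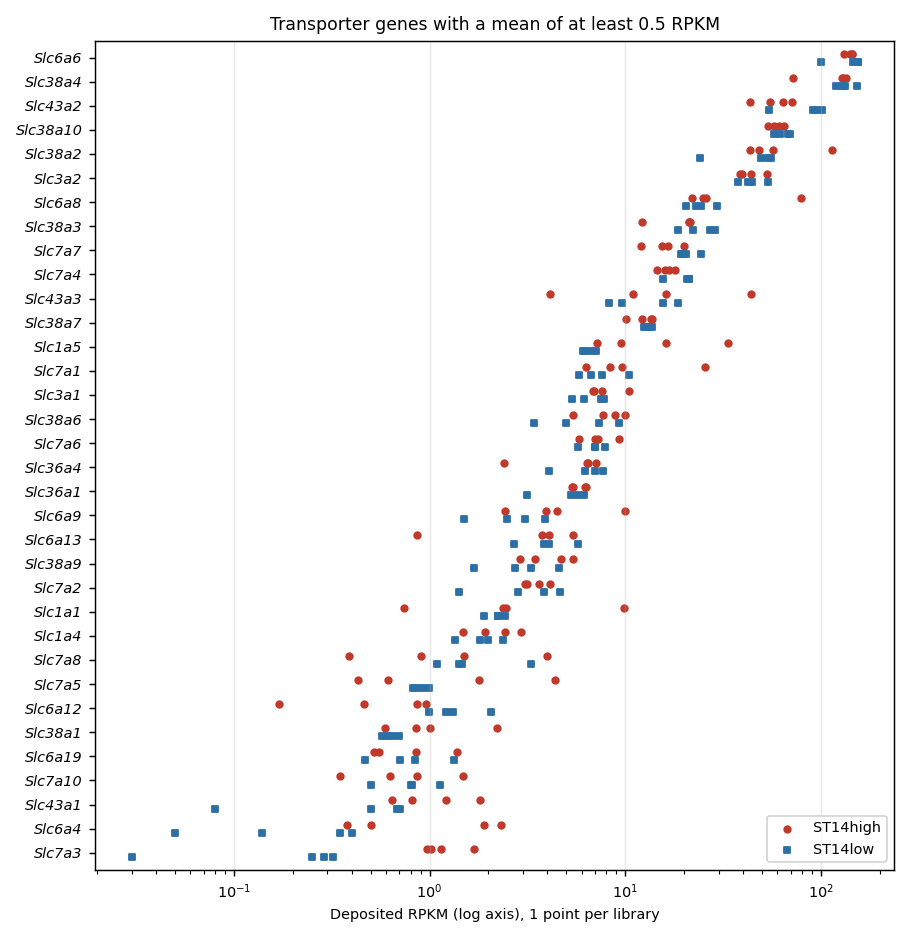
Deposited RPKM of the carriers with a mean of at least 0.5 RPKM, 1 point per library, on a log axis, ordered by the mean over 8 libraries. Slc6a6 and Slc38a4 stand highest, and for most genes the ST14high circles and ST14low squares share a range.

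Of the 62 members, 36 passed the low-count filter and were tested. In edgeR's quasi-likelihood test 0 of the 36 passed an adjusted p of 0.05, where 0.0% of all 13749 genes tested did, and the smallest adjusted p among members was 0.302. An unadjusted p under 0.05 was reached by 4 members, 3 higher (Slc7a3, Slc1a5 and Slc6a4) and 1 lower (Slc43a2) in ST14high. That is 11.1% of the members tested, against 9.56% of all genes (6.89% higher and 2.68% lower). DESeq2's Wald test called 1 member, Slc7a3, or 2.78% of them, against 1.72% of genes in all and 1.62% higher. In 3 members the 4 libraries of one population all lay above the 4 of the other, 2 higher (Slc1a5 and Slc7a3) and 1 lower (Slc6a12) in ST14high. That is 8.33% of the members, against 6.42% of all genes (4.09% higher and 2.33% lower). Log2 fold changes, always ST14high over ST14low, were above 0 in 24 of the 36 members, where 50.3% of all genes were, with a median of 0.20 against 0.002 over all genes. Without ST14high replicate 1 they were above 0 in 20 of 36, with a median of 0.06 against -0.01.

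**Figure D2:**
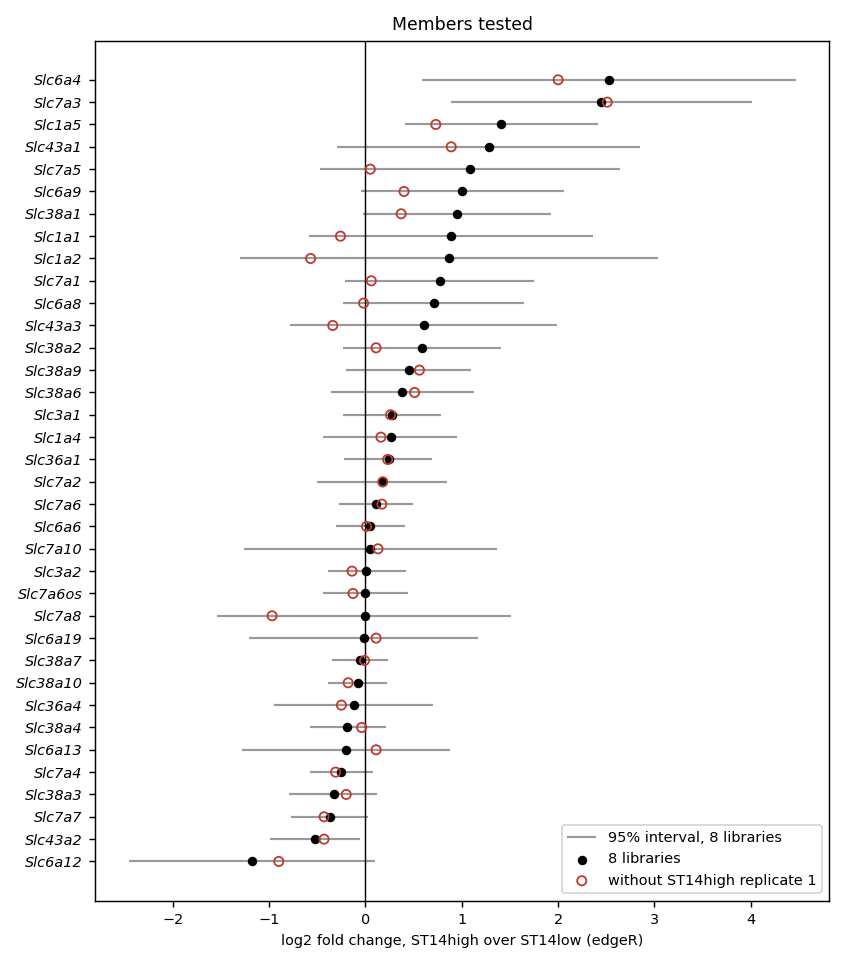
Log2 fold change (ST14high over ST14low) of the 36 members tested, with 95% intervals from edgeR (black points and grey lines) and the value without ST14high replicate 1 (open circles). In 32 of the 36 the interval covers 0, and in some, Slc1a1, Slc1a2 and Slc43a3 among them, the open circle lies on the other side of 0.

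The cationic amino acid carriers of SLC7 take up arginine, lysine and ornithine. Of this group and its relatives 4 of 5 were tested, and none passed in edgeR; 3 fold changes were above 0 and 1 below. Slc7a3, whose product is best known from neurons, was at 2.02, 2.07, 3.21 and 1.90 CPM in ST14high replicates 1 to 4, against 0.554, 0.0512, 0.463 and 0.594 CPM in ST14low replicates 1 to 4. The lowest ST14high library lay well above the highest ST14low library, on 32, 52, 136 and 64 counts in ST14high and 13, 1, 3 and 19 counts in ST14low. The log2 fold change was 2.45 (SE 0.70, adjusted p = 0.302 in edgeR and 0.0498 in DESeq2) and became 2.51 when ST14high replicate 1 was left out. DESeq2's call was lost in each fit that left out 1 library, with adjusted p from 0.0686 to 0.167. The counted transcript spans positions 98274559 to 98280691 of chromosome X in the mouse build mm9.

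Slc7a1, the cationic carrier of most dividing cells, was at 188.3, 53.7, 42.3 and 63.4 CPM in ST14high, against 69.7, 39.6, 44.3 and 49.5 CPM in ST14low. ST14high replicate 1 lay far above the other 7 libraries, and the log2 fold change of 0.77 (SE 0.44) was 0.06 without it. Slc7a2, another cationic carrier, was at 25.0, 28.9, 22.6 and 25.8 CPM in ST14high and at 27.7, 10.5, 33.2 and 19.9 CPM in ST14low. The ST14low range enclosed the ST14high range, and the fold change of 0.17 was -0.08 without ST14low replicate 2. Slc7a4, a relative of these carriers for which no substrate is firmly established, was at 56.1, 52.3, 44.6 and 47.5 CPM in ST14high and at 64.1, 64.3, 46.9 and 62.3 CPM in ST14low. Its populations overlapped through ST14low replicate 3 (log2 fold change -0.25, SE 0.15).

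The neutral amino acid exchangers of SLC1 are Slc1a5, a main route of glutamine into dividing cells, and Slc1a4, which exchanges alanine, serine and cysteine. Slc1a5 was at 89.0, 22.2, 17.6 and 38.6 CPM in ST14high, against 17, 15.4, 14.7 and 15.7 CPM in ST14low. All 4 ST14high libraries were higher than any ST14low library, but the closest pair, 17.6 CPM in ST14high replicate 3 and 17 CPM in ST14low replicate 1, nearly met. ST14low libraries differed little among themselves, with an SD of 1.00 CPM on a mean of 15.7, while in ST14high the SD was 32.7 CPM on a mean of 41.8. The log2 fold change was 1.41 (SE 0.45, 95% interval 0.41 to 2.41, adjusted p = 0.365 in edgeR and 0.0717 in DESeq2), and 0.73 without ST14high replicate 1. With ST14high replicate 2 or 3 left out, a choice made after the data were seen, DESeq2 called it, with adjusted p of 0.0259 and 0.00354. Those were the ST14high libraries with the lowest Slc1a5, so leaving either out widens the difference. Each of the other fits that left out 1 library did not call it, with adjusted p from 0.118 to 0.248. The highest value, 0.248, was without ST14high replicate 1. The mesothelial, fibroblast and stellate markers were highest in the 2 libraries with the highest Slc1a5, at 3698 CPM in ST14high replicate 1 and 1165 CPM in ST14high replicate 4. Their part in the value was not tested. The transcript lies at 17366694 to 17383623 of chromosome 7 in mm9. Slc1a4 was low, with 5.46 to 10.4 CPM in ST14high and 4.75 to 8.49 CPM in ST14low libraries (log2 fold change 0.26, or 0.16 without ST14high replicate 1).

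Of the 5 glutamate carriers of SLC1, Slc1a1 and Slc1a2 were tested and neither passed. Slc1a1, the glutamate and cysteine carrier of epithelia and neurons, was at 35.2, 7.68, 7.84 and 2.37 CPM in ST14high and at 7.88, 6.35, 7.25 and 7.07 CPM in ST14low. ST14high replicate 1 was highest and ST14high replicate 4 lowest of the 8, and the log2 fold change of 0.89 (SE 0.66) was -0.26 without replicate 1. Slc1a2, which in rodent liver marks hepatocytes near the central vein, ranged from 0.543 to 11.0 CPM in ST14high and from 0.344 to 4.60 CPM in ST14low. Its fold change of 0.87 was -0.57 without ST14high replicate 1.

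**Figure D3:**
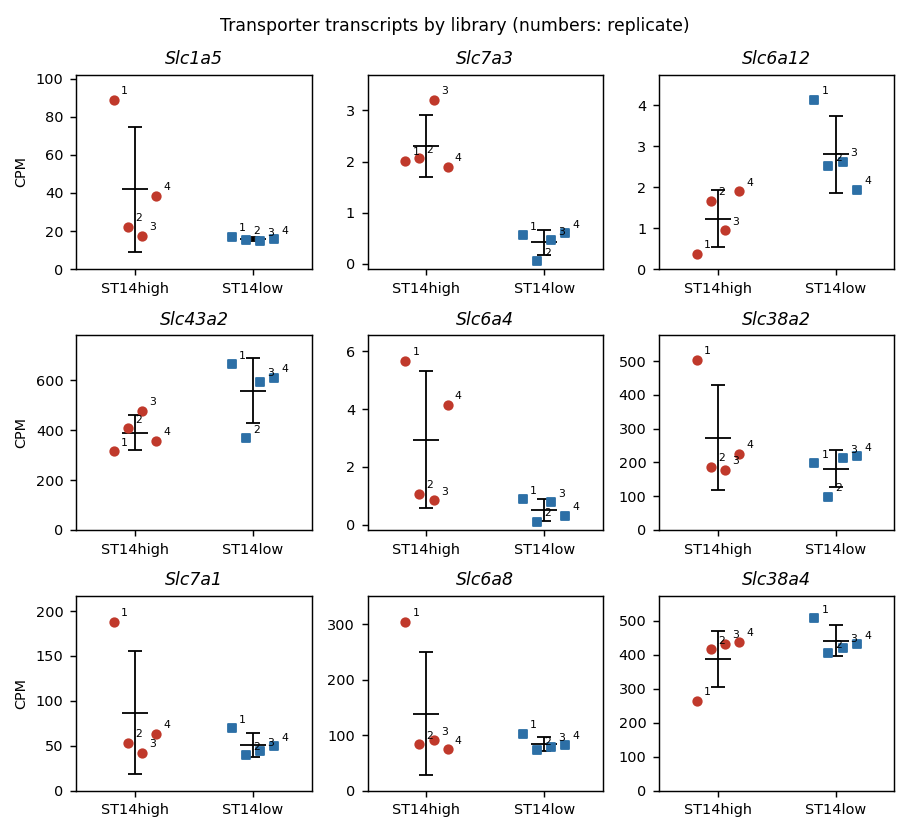
CPM of 9 members by library, with the replicate number beside each point and the mean ± SD (n = 4) of each population in black. In Slc7a3 all ST14high points lie above all ST14low points, and in Slc1a5, Slc38a2, Slc7a1 and Slc6a8 ST14high replicate 1 lies far above the other 7 libraries.

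Both heavy chains were measured. Slc3a2, the heavy chain of most light chains, was at 130.8, 84.7, 100 and 84.2 CPM in ST14high and at 94.5, 122.4, 98.0 and 81.4 CPM in ST14low. The populations shared 1 range (log2 fold change 0.01, 95% interval -0.39 to 0.42; it was between -0.14, in the fit lacking ST14high replicate 1, and 0.11 as each library was left out). Slc3a1, which in kidney and intestine carries the light chain Slc7a9 in the uptake of cystine and basic amino acids, was at 16.2, 12.9, 13.4 and 19.9 CPM in ST14high and at 11.8, 15.4, 14.4 and 10.1 CPM in ST14low. Its positions overlap Prepl on the other strand, and without a stated strand setting reads of the pair cannot be told apart. Its known partners were near the floor. Slc7a9 had 13 counts and Slc7a13 had 40 over all libraries, and their summed level was 0.255 ± 0.0827 RPKM in ST14high and 0.0075 ± 0.0150 RPKM in ST14low, while Slc3a1 averaged 7.96 ± 1.70 RPKM in ST14high and 6.70 ± 1.15 RPKM in ST14low.

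Slc3a2 stood above the sum of its 6 light chains (Slc7a5, Slc7a6, Slc7a7, Slc7a8, Slc7a10 and Slc7a11) in every library, by a ratio in RPKM of 1.60 ± 0.345 in ST14high and 1.41 ± 0.122 in ST14low (SD, n = 4 each; exact two-sided permutation p = 0.371). Slc7a7, which exports basic amino acids in exchange for neutral ones, made up 57.5 ± 6.94% of that light chain sum in ST14high and 66.6 ± 2.95% in ST14low (exact two-sided permutation p = 0.114). It was at 33.3, 35.4, 22.4 and 27.8 CPM in ST14high and at 35.1, 45.9, 37.0 and 35.3 CPM in ST14low. ST14high replicate 2 lay inside the ST14low range and the other 3 ST14high libraries below it (log2 fold change -0.37, SE 0.18, adjusted p = 0.546). Part of its locus overlaps Oxa1l on the other strand. Slc7a6, which carries out the same exchange, was at 21.5, 23.4, 23.9 and 30.4 CPM in ST14high and at 26.3, 23.9, 19.0 and 22.8 CPM in ST14low, with overlapping ranges (log2 fold change 0.11; -0.01 without ST14high replicate 4). Its neighbour Slc7a6os, which does not overlap it in the deposited positions, was at 39.3, 31.7, 30.7 and 22.4 CPM in ST14high and at 29.2, 26.2, 30.7 and 37.7 CPM in ST14low, with a log2 fold change of 0.00 that ranged from -0.13 to 0.13 as each library was left out.

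The remaining light chains were scarce, and the members named in this paragraph were chosen after their values were seen. Slc7a5, which brings leucine into dividing cells, was at 15.2, 1.83, 1.37 and 5.49 CPM in ST14high and at 2.56, 3.18, 2.62 and 2.81 CPM in ST14low. The ST14low libraries sat inside the spread of ST14high, and the log2 fold change of 1.08 (SE 0.70) was 0.05 without ST14high replicate 1. Slc7a10, an exchanger of small neutral amino acids whose locus overlaps Lrp3 on the other strand, averaged 1.30 ± 0.756 CPM in ST14high and 1.24 ± 0.375 CPM in ST14low (log2 fold change 0.05). Slc7a8, which carries large and small neutral amino acids, was at 15.9, 3.14, 1.42 and 5.31 CPM in ST14high and at 5.24, 5.23, 11.9 and 3.85 CPM in ST14low. It was highest in ST14high replicate 1 and ST14low replicate 3, and lowest in ST14high replicate 3. The fold change of -0.01 was -0.97 without ST14high replicate 1. The 14 endothelial markers summed highest in those same 2 libraries, at 1392 and 1269 CPM, and lowest in ST14high replicate 3, at 25.0 CPM. ST14low replicate 2 had the next highest sum, 951.2 CPM, but its Slc7a8 level was about that of ST14low replicate 1, where the sum was 327.2 CPM. The part of endothelial cells in the values of Slc7a8 was not tested.

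Slc7a11, the light chain that exchanges cystine for glutamate and so feeds glutathione synthesis, fell under the low-count filter. It had 78, 1, 0 and 1 counts in ST14high and 24, 1, 2 and 1 counts in ST14low replicates 1 to 4. Nearly all its reads came from replicate 1 of each population, in which the acinar markers summed to 12185 CPM (ST14high) and 135.5 CPM (ST14low), the highest of their population. ST14high replicate 2, with an acinar sum of 1804 CPM, had 1 count, and the part of acinar cells in these reads was not tested. The gene is a textbook target of the amino acid stress factor ATF4. The window before its start is shown because it holds the 8 letters TGATGCAA of the amino acid response element, searched on both strands in RefSeq windows of 300 bases (250 before the gene's start) on GRCm38.p6. The letters were in 294 of 32851 windows (0.895%). Of the members, 44 matched by symbol with 65 windows, and 4 windows of 3 genes (6.15% of the windows) held them. Overlapping windows of Slc7a7 share 1 match, and the share per gene was not counted. The percentages of windows therefore do not show an excess among the members. The capitals mark the match, which is written as TTGCATCA where it lies on the other strand:
Slc7a11, chr3:50443614-50443863, minus strand: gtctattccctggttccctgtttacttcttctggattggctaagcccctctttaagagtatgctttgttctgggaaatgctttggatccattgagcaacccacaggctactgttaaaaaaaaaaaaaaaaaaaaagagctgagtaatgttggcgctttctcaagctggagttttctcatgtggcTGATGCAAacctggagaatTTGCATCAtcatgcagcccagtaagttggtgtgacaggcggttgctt
Slc7a7, chr14:54417703-54417952, minus strand: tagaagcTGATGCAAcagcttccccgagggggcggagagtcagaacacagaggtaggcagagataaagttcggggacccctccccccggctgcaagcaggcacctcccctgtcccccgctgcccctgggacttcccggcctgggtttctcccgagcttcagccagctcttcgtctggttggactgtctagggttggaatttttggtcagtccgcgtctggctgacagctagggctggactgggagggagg
Slc7a11 has 2 matches facing each other, with first bases 66 and 47 before the start. The Slc7a7 match begins 243 bases before the start shown and lies also in an overlapping window of that gene. In Slc1a4 the match begins 4 bases before the start. While 78 and 24 of the 108 counts of Slc7a11 fell in replicate 1 of ST14high and of ST14low, Slc1a4 and Slc7a7 ranged from 4.75 to 10.4 CPM and from 22.4 to 45.9 CPM over all libraries.

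Of the sodium-coupled carriers of SLC38 known as systems A and N, 4 of 5 members were tested, with 2 fold changes above 0 and 2 below. Slc38a2, the system A carrier that cells induce when amino acids run short, was at 503.5, 187.3, 178.0 and 225.1 CPM in ST14high and at 197.7, 98.6, 212.9 and 217.8 CPM in ST14low. ST14high replicate 1 was highest and ST14low replicate 2 lowest, and the other 6 libraries lay close together. The log2 fold change of 0.59 (SE 0.37) was 0.11 without ST14high replicate 1. Slc38a4 was at 265.3, 417.5, 432.4 and 438.6 CPM in ST14high and at 508.4, 405.8, 421.1 and 431.9 CPM in ST14low. Here ST14high replicate 1 was lowest and the other ST14high libraries lay inside the ST14low range (log2 fold change -0.19, 95% interval -0.58 to 0.21, and -0.04 without that library).

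Slc38a3, the glutamine carrier of system N, was at 27.2, 41.5, 43.8 and 41.9 CPM in ST14high and at 58.0, 55.7, 44.4 and 36.4 CPM in ST14low. ST14high replicate 1 was again lowest (log2 fold change -0.33, SE 0.20, adjusted p = 0.614, and -0.20 without it). The 18 hepatocyte markers also summed lowest in that library, at 5921 CPM, against 9825 to 13675 CPM in the other ST14high and 9444 to 15848 CPM in the ST14low libraries, and their part in the values of Slc38a3 and Slc38a4 was not tested. Slc38a1, the other widely expressed system A carrier, chosen here after its values were seen, was at 17.3, 5.85, 7.2 and 4.13 CPM in ST14high and at 4.05, 4.41, 4.94 and 4.41 CPM in ST14low. The log2 fold change of 0.95 was 0.37 without ST14high replicate 1. Slc38a5, the other system N carrier, had 24 and 11 counts in ST14high replicates 1 and 2 and 0 in the remaining 6 libraries. Those 2 libraries are the ones in which acinar markers summed highest, and the acinar part in these reads was not tested.

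Several members work at the lysosome, where amino acids are sensed by the kinase complex mTORC1. Slc38a9, which signals lysosomal arginine to that complex, was at 26.6, 37.5, 45.3 and 28.4 CPM in ST14high and at 22.8, 14.2, 37.8 and 26.8 CPM in ST14low. The ranges overlapped, with ST14low replicates 3 and 4 inside that of ST14high (log2 fold change 0.45, SE 0.29). Slc38a7, a lysosomal exporter of glutamine, was among the steadiest members, at 31.6, 37.1, 39.5 and 34.0 CPM in ST14high and 35.5, 39.8, 37.2 and 35.4 CPM in ST14low (log2 fold change -0.06, 95% interval -0.35 to 0.23). Slc36a1, a proton-coupled carrier of small neutral amino acids on lysosomes and the cell surface, was at 29.0, 29.0, 31.1 and 25.6 CPM in ST14high and at 25.4, 15.6, 29.5 and 27.1 CPM in ST14low. All but ST14low replicate 2 lay within a narrow band (log2 fold change 0.24, SE 0.20). The remaining tested members of SLC36 and SLC38, Slc38a10, Slc36a4 and Slc38a6, are given next without a claim on their place in the cell. Slc38a10 was at 283.8, 219.6, 216.6 and 237.5 CPM in ST14high and at 268.5, 280.5, 225.9 and 238.4 CPM in ST14low, with a log2 fold change of -0.08 (95% interval -0.39 to 0.22, and -0.18 without ST14high replicate 1). Slc36a4 and Slc38a6 lay between 3.62 and 12.7 CPM in ST14high and between 4.35 and 11.8 CPM in ST14low libraries, with log2 fold changes of -0.12 for Slc36a4 and 0.38 for Slc38a6, and of -0.25 and 0.51 without ST14high replicate 1.

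Slc43a2, a facilitator of SLC43, had the lowest unadjusted p of the 6 members that averaged at least 100 CPM. Slc43a2 was at 315.2, 407.4, 478.1 and 357.3 CPM in ST14high and at 664.6, 367.1, 595.5 and 610.7 CPM in ST14low. In 3 of 4 ST14low libraries it was above every ST14high library, and ST14low replicate 2 lay inside the ST14high range. The log2 fold change was -0.52 (SE 0.21, 95% interval -0.99 to -0.06, unadjusted p = 0.0308, adjusted p = 0.481 in edgeR and 0.237 in DESeq2), and -0.43 without ST14high replicate 1. Without ST14low replicate 2, a choice made after the data were seen, DESeq2 called it lower, with an adjusted p of 0.00389. That fit drops the only ST14low library inside the ST14high range. Each of the other fits that left out 1 library did not call it, with adjusted p in DESeq2 from 0.127 to 0.737. The counted transcript spans 75345613 to 75391074 of chromosome 11 in mm9.

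Slc43a3, which carries purine bases and not amino acids, was at 101.9, 22.4, 8.86 and 33.5 CPM in ST14high and at 20.3, 33.8, 38.7 and 16.9 CPM in ST14low. Its 4 highest libraries, ST14high replicate 1, ST14low replicates 3 and 2 and ST14high replicate 4, were also the 4 with the highest sums of endothelial markers, at 1392, 1269, 951.2 and 398.3 CPM, and ST14high replicate 3 was lowest in both. The endothelial part in its values was not tested. The log2 fold change of 0.61 (SE 0.62) was -0.34 without ST14high replicate 1. Slc43a1, a carrier of branched amino acids named here after its values were seen, averaged 2.30 ± 1.22 CPM in ST14high and 0.959 ± 0.565 CPM in ST14low (log2 fold change 1.28, SE 0.71, adjusted p = 0.587, and 0.89 without ST14high replicate 1).

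The taurine, creatine, betaine and GABA carriers of SLC6 include the member of highest level. Taurine is conjugated to bile acids in mouse liver. Slc6a6 was at 869.8, 776.8, 821.4 and 723.5 CPM in ST14high and at 814.9, 569.9, 853.3 and 842.2 CPM in ST14low. All libraries but ST14low replicate 2 lay in 1 range, and the log2 fold change was 0.05 (95% interval -0.31 to 0.41; -0.08 without ST14low replicate 2). Slc6a8, the creatine carrier, was at 304.6, 83.6, 91.1 and 74.8 CPM in ST14high and at 102.5, 73.1, 79.3 and 83.0 CPM in ST14low. Only ST14high replicate 1 stood out, and the log2 fold change of 0.71 (SE 0.42) was -0.02 without it. Slc6a12, the betaine and GABA carrier that kidney cells induce under osmotic stress, was at 0.379, 1.67, 0.945 and 1.90 CPM in ST14high and at 4.13, 2.51, 2.62 and 1.94 CPM in ST14low. All 4 ST14high libraries were lower than any ST14low library, by the small gap of 1.90 CPM in ST14high replicate 4 to 1.94 CPM in ST14low replicate 4. Its log2 fold change was -1.18 (SE 0.57, adjusted p = 0.544 in edgeR and 0.46 in DESeq2), and -0.90 without ST14high replicate 1. The related Slc6a13 averaged 5.61 ± 2.91 CPM in ST14high and 6.52 ± 2.01 CPM in ST14low. ST14high replicate 1 was lowest at 1.52 CPM (log2 fold change -0.20, or 0.11 without it).

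Of the 10 amino acid carriers of SLC6, 2 were tested. Slc6a9, the glycine carrier, was at 30.2, 11.9, 11.0 and 6.56 CPM in ST14high and at 8.40, 4.20, 10.6 and 6.69 CPM in ST14low. ST14high replicates 1 to 3 lay above every ST14low library and replicate 4 inside their range. Its log2 fold change of 1.00 (SE 0.47, adjusted p = 0.531) was 0.40 without ST14high replicate 1, and its locus overlaps Ccdc24 on the other strand. Slc6a19, the neutral amino acid carrier of gut and kidney, averaged 1.65 CPM in both populations. Among the monoamine carriers only Slc6a4, the serotonin carrier, was tested, and it is named after its values were seen. It was at 5.68, 1.07, 0.850 and 4.15 CPM in ST14high and at 0.895, 0.102, 0.772 and 0.313 CPM in ST14low. ST14high replicates 1 and 4 stood above the rest, and the lowest ST14high library fell just under the highest ST14low one. Its log2 fold change of 2.53 (SE 0.87, unadjusted p = 0.0159, adjusted p = 0.399 in edgeR and 0.136 in DESeq2) was 2.0 without ST14high replicate 1. Of the DESeq2 fits that left out 1 library, added after the data were seen, 1 called it, the one without ST14high replicate 3 (adjusted p = 0.0384). The mesothelial, fibroblast and stellate markers were highest in the same replicates, at 3698 CPM in ST14high replicate 1 and 1165 CPM in ST14high replicate 4, and their part in its values was not tested.

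Of the 26 members that were not tested, 6 were at 0 in all libraries: Slc36a3, Slc6a5, Slc6a11, Slc6a18, Slc7a12 and Slc7a15. With 197962482 counts in all, a count of 0 allows up to 0.0152 CPM over the 8 libraries, and per library from 0.0701 CPM in the deepest to 0.469 CPM in the shallowest (3 counts of the total, for counting error only). The other 20 had between 3 and 108 counts in all and at most 1.02 CPM in any library other than ST14high replicate 1, and 14 of them were highest in that library. Of the 20, 6 had counts in ST14high and 0 in every ST14low library, and the share of all genes that did was not counted. Apart from Slc7a9, their reads lay only in ST14high replicates 1 and 2, where acinar markers summed highest. The acinar part in these reads was not tested, and the shallowest library was in ST14low.

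ST14high replicate 1 was high for some carriers and low for others. In 13 of the 36 tested members (36.1%) it lay at least 2-fold above the mean of the other 3 ST14high libraries, where 13.8% of all genes tested did. These were Slc1a1, Slc1a2, Slc1a5, Slc6a4, Slc6a8, Slc6a9, Slc7a1, Slc7a5, Slc7a8, Slc38a1, Slc38a2, Slc43a1 and Slc43a3, with ratios from 2.28 for Slc43a1 to 7.88 for Slc1a2. In Slc6a12 and Slc6a13 (5.56% of members, against 4.28% of all genes) it lay at least 2-fold below them. It was the highest of the 8 libraries in 17 members, or 47.2%, against 23.0% of all genes tested. Acinar, endothelial, and mesothelial, fibroblast and stellate markers summed highest in the same library and hepatocyte and duct cell markers lowest; their part in these members was not tested. ST14low replicate 2 was the lowest of the 8 libraries in 12 members, or 33.3%, against 22.2% of all genes tested.

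**Figure D4:**
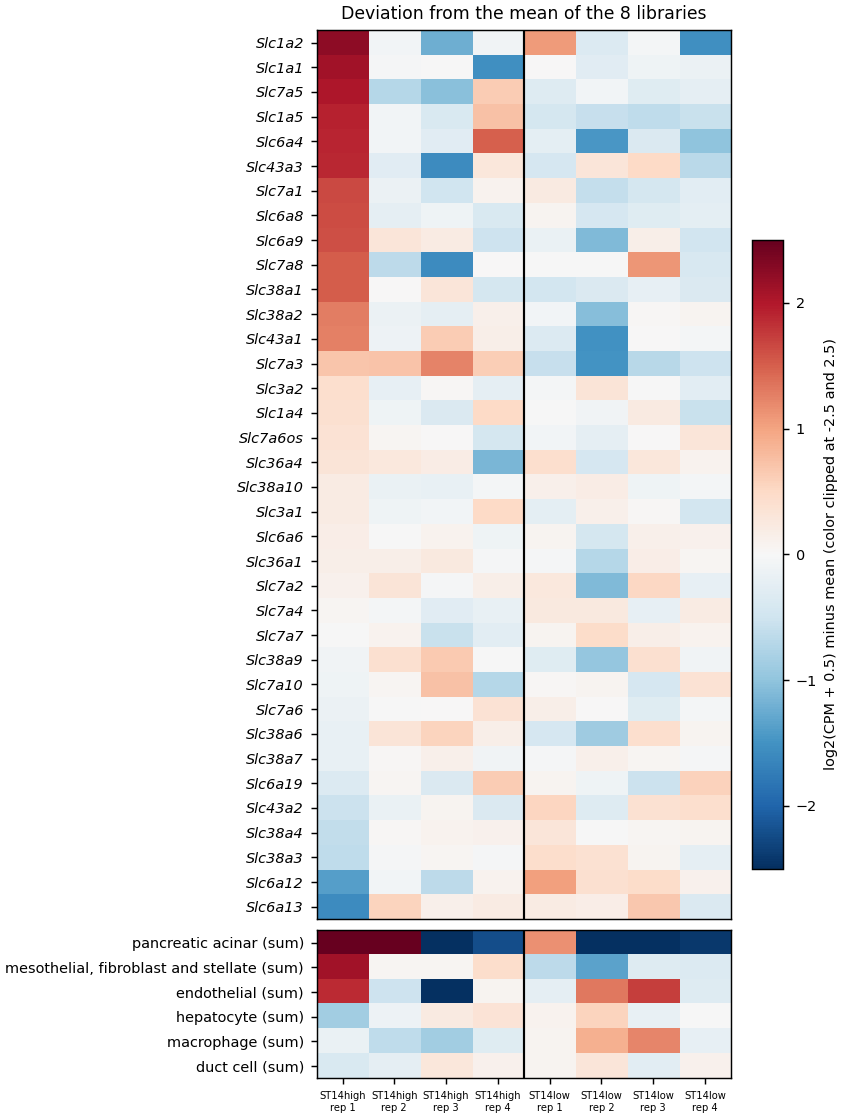
Deviation of each library from the mean of the 8, as log2(CPM + 0.5), for the 36 members tested, with the summed markers of 6 cell types below; colors are clipped at -2.5 and 2.5. The column of ST14high replicate 1 is red for carriers from Slc1a2 to Slc43a1 and blue for Slc6a13 and Slc6a12, and Slc7a3 is red in all 4 ST14high columns and blue in all 4 ST14low columns.

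Genes that act with these carriers were read from the same test. Of 23 genes of the amino acid stress response, 0 passed in edgeR and 1 (4.35%, against 9.56% of all genes) had an unadjusted p under 0.05, with a median log2 fold change of 0.06, 14 above 0 and 9 below. The 2 with the highest mean CPM overlapped between populations. Atf3, a stress-induced transcription factor, ranged from 702.1 to 3692 CPM in ST14high and from 1176 to 4247 CPM in ST14low, and Atf4, the factor that drives the response, from 229.3 to 610.3 CPM in ST14high and from 249.8 to 422.4 CPM in ST14low. Nupr1, a small stress-induced chromatin protein, was called by DESeq2 (adjusted p = 0.00487) and not by edgeR (adjusted p = 0.27). It was at 41.8, 7.56, 4.35 and 8.73 CPM in ST14high and at 3.15, 1.90, 3.24 and 1.75 CPM in ST14low, and its log2 fold change of 2.65 (SE 0.69) was 1.47 without ST14high replicate 1.

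Of 30 genes listed for mTORC1 and lysosomal amino acid sensing, 29 were tested, 4 of them under older symbols. In edgeR 0 passed and 0 had an unadjusted p under 0.05, DESeq2 called 0, and the median log2 fold change was -0.05. Rragd, a GTPase that recruits the kinase to lysosomes, ranged from 107.2 to 167.4 CPM in ST14high and from 125.2 to 194.3 CPM in ST14low. Tsc2, an inhibitor of the complex, ranged from 135.5 to 154.5 CPM in ST14high and from 102.8 to 155 CPM in ST14low. Of 23 genes of glutathione and glutamate metabolism, 0 passed in edgeR and 3 (13%, against 9.56% of all genes) had an unadjusted p under 0.05, 2 higher and 1 lower in ST14high. Their median log2 fold change was -0.08, and DESeq2 called 0. By mean CPM over all libraries, which is not scaled by length, the first 2 were Gpt2, a mitochondrial alanine transaminase, and Glul, glutamine synthetase. Glud1, glutamate dehydrogenase, was close to Glul, at means of 307.1 CPM in ST14high and 331 CPM in ST14low. Gpt2 ranged from 343 to 567.6 CPM in ST14high and from 467.8 to 675.5 CPM in ST14low, and Glul from 243.1 to 617.7 CPM in ST14high and from 284.7 to 388.8 CPM in ST14low. Gclc, a subunit of the rate-limiting enzyme of glutathione synthesis, named after its values were seen, was at 335.4, 95.4, 130.8 and 129 CPM in ST14high and at 88.9, 76.3, 93.5 and 78.4 CPM in ST14low. All 4 ST14high libraries were higher than any ST14low library, but ST14high replicate 2 and ST14low replicate 3 nearly met. The log2 fold change of Gclc, 1.03 (SE 0.35, adjusted p = 0.396 in edgeR), was 0.49 without ST14high replicate 1. Gclm, the other subunit, and Gss and Gsr of the same list overlapped between populations, with log2 fold changes of 0.08, -0.03 and -0.04. Besides Gclc, the genes of this list with an unadjusted p under 0.05 in edgeR were Gpt and Cdo1. Gpt was higher in ST14high (log2 fold change 0.67, edgeR unadjusted p = 0.0133), and Cdo1 was lower (-0.53, edgeR unadjusted p = 0.0482).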

How the data were processed

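RNA of 8 samples, 4 each of ST14high and ST14low cells, was sequenced; groups and replicate numbers come from the labels. The submitters' processing notes name CASAVA 1.8.2, Bowtie 1.0.0 and build mm9. What program and annotation release counted the reads, and whether by strand, is not given in the sources used here. The authors deposited raw counts and RPKM values per RefSeq transcript, per the file headers. Per symbol the transcript with the most counts was kept, since transcripts of 1 gene share reads. The deposited RPKM values served only to set levels of genes side by side.

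Counts were tested across all genes with edgeR 4.0.16 in R 4.3.3 (quasi-likelihood test, TMM factors, filterByExpr, population as the only term, two-sided, Benjamini-Hochberg adjustment, threshold 0.05). The same test was run on data simulated from its own fit, with no outlying library. That run checked fold change estimates only and does not show how many real changes the test would miss here. DESeq2 1.42.0 and limma 3.58.1 (voom with quality weights) were other tools. The common biological coefficient of variation was 38.4%. Sums were tested by exact two-sided permutation (70 arrangements, smallest p 0.0286). Members, lists and tests were chosen with earlier results of these data known. Named by rule were St14, the 24 members with a mean of at least 10 CPM, or of at least 1 CPM with populations apart, and of each list the 2 highest genes and any called. Settings varied were the size factors, the low-count filter, the tool, the replicate number as a block, the longest transcript and each library left out; DESeq2 without each library was added after seeing the data. Same-numbered libraries did not deviate together.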

Additional observations from a re-analysis of the deposited data

Results flagged for a closer look

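In 10 of 48 groups of 4 libraries (24 members in 2 populations), the highest or lowest library lay apart from the nearest of the others by more of the group's range than Dixon's 95% critical value, where chance gives about 1 in 20 groups. The groups come from the same 8 libraries and are not independent, so that rate does not test the number of flags. Flags were not counted over all genes. Those in ST14high replicate 1 fell on 6 members. Slc1a1 (35.2 CPM, next library 7.84 CPM), Slc38a2 (503.5 CPM, next 225.1 CPM), Slc6a8 (304.6 CPM, next 91.1 CPM) and Slc7a1 (188.3 CPM, next 63.4 CPM) were high there. Slc38a3 (27.2 CPM, next 41.5 CPM) and Slc38a4 (265.3 CPM, next 417.5 CPM) were low there. Slc7a3 was high in ST14high replicate 3 (3.21 CPM, next 2.07 CPM). Slc38a2 (98.6 CPM, next 197.7 CPM) and Slc6a6 (569.9 CPM, next 814.9 CPM) were low in ST14low replicate 2. Slc7a4 was low in ST14low replicate 3 (46.9 CPM, next 62.3 CPM), the library with the fewest counts.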

How the results depend on the processing

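The number of members called was 0 in edgeR with all libraries, under each alternative of that tool and in limma's voom with quality weights, and 1 in DESeq2 (Slc7a3). Over all genes the count was 0 in edgeR, 234 in DESeq2 and 2 with the replicate number as a block. The block called 0 members, and same-numbered libraries correlated at 0.052, 0.052, -0.121 and 0.003 in their deviations, and of the 8 libraries only ST14low replicate 2 correlated most with its own number. Leaving out each library gave 0 called members in edgeR and 0 to 2 in DESeq2, and over all genes 0 in edgeR and, in DESeq2, 274, 260, 367 and 222 without ST14high replicates 1 to 4 and 150, 165, 296 and 157 without ST14low replicates 1 to 4, fits added after seeing the data. The median log2 fold change of the members, 0.20, was 0.73 with no low-count filter, which adds genes of few reads, 0.07 in voom with quality weights and 0.06 to 0.37 as each library was left out. Members with populations apart numbered 3, 1 with a filter of 5 CPM, which removes genes, and 3 to 5 with a library left out, which makes separation easier. The share of all genes, 6.42%, was counted in the main setting only, so the other numbers have no such share to be read against. The 3 pathway lists had 0 calls except 1 in DESeq2 (Nupr1). Of 34 members followed, 20 kept the sign of their fold change in every setting. In voom with quality weights, which changes both the tool and the weight of each library, the sign turned for Slc1a1 (-0.05), Slc38a7 (0.03), Slc6a13 (0.38), Slc6a6 (-0.06), Slc7a5 (-0.26) and Slc7a6os (-0.15); Slc7a6os was -0.01 with DESeq2's size factors, no filter, DESeq2 or the block, and Slc7a8 was 0.00 with the 5 CPM filter. The cause was not tested. Over the fits without 1 library, log2 fold changes that turned ranged from -0.26 to 1.24 for Slc1a1, -0.57 to 1.67 for Slc1a2, -0.29 to 0.13 for Slc36a4, -0.14 to 0.11 for Slc3a2, -0.34 to 0.92 for Slc43a3, -0.46 to 0.11 for Slc6a13, -0.08 to 0.10 for Slc6a6, -0.02 to 0.91 for Slc6a8, -0.08 to 0.40 for Slc7a2, -0.01 to 0.18 for Slc7a6, -0.13 to 0.13 for Slc7a6os and -0.97 to 0.42 for Slc7a8. Slc7a3 and Slc6a12 rest on few counts, at most 136 and 97 in any library.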
